A study of Mus musculus with 7 samples.

Results

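The transcripts of 10 genes that build the neuronal cytoskeleton or act in axon growth were followed through 7 RNA sequencing libraries of cultured neural cells, which had been derived from embryonic stem cells of the mouse. The genes are the microtubule-associated Map2, Mapt and Dcx, the stathmins Stmn1, Stmn2 and Stmn3, the growth cone gene Gap43, and the intermediate filament genes Nefl, Nefm and Ina. They were chosen by name and found by the Ensembl identifier in the deposited annotation, and all 10 of 10 were listed. There was 1 library each for exposure to chlorpyrifos, DDT, rotenone, carbaryl, deltamethrin and imidacloprid, and 1 control library. Every culture came from wild-type stem cells of the B6G-2 line, so a single line stands for all groups. Embryoid bodies were grown for 6 days, progenitors were expanded with bFGF and EGF in RHB-A medium on poly-ornithine and laminin, and day 14 progenitors were then moved to BrainPhys medium with B27 to differentiate. The insecticides were applied for 1 day. Neither dose nor vehicle is stated in the labels, and the tissue is labelled brain even though these are cultured cells. The stated aim was to compare expression between insecticides as a way into developmental neurotoxicity.

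Microtubules are polar tubulin polymers that give axons and dendrites their shape. MAP2, tau (the product of Mapt) and doublecortin (Dcx) bind along microtubules and stabilise them, with MAP2 known mainly from dendrites, tau from axons and doublecortin from migrating young neurons. Stathmins bind free tubulin dimers and favour microtubule shortening. GAP-43 is a membrane-bound protein of growing axon tips. Neurofilaments, of which the light and medium chains (Nefl, Nefm) and alpha-internexin (Ina) are subunits, fill the axon and set its calibre, and alpha-internexin is the subunit that appears early in development. In neurons made from stem cells these genes are usual signs of a neuronal fate.

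Values are FPKM, fragments scaled to transcript length and library size, given by the authors for transcript-structure events and not for genes. Such events are the starts and ends of transcripts, exons that are skipped and introns that are kept. For each gene the FPKM of its distinct start events were summed to a start total and those of its distinct end events to an end total. A gene value, the mean of both, was used where they agreed within 0.3 on the log2 scale. Folds are differences of log2(FPKM + 1) and understate the change of low genes. There was 1 library in each group, so differences have no replicate check and no p-value, and every count below describes these libraries, not the insecticides. The number of reads behind a value is not known, since the files hold no counts. The 7 libraries were of like size, with 93977 to 95776 distinct events, and 6299 genes had a usable value of at least 1 FPKM on average. The number of genes at 2-fold or more was 103 to 126 in the 15 pairs of insecticide libraries, and 101 to 134 in the 6 comparisons with control, with medians of 112 and 107.5.

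Of the 10 genes, 6 had a gene value (Dcx, Gap43, Stmn3, Nefl, Nefm and Ina). For Map2, Mapt, Stmn1 and Stmn2 the end total, averaged over the libraries, was below 5% of the start total. A start total is therefore given in place of a gene value. In 5 genes (Gap43, Stmn3, Nefl, Nefm and Ina) the start total and the end total were the same number in all 7 libraries, and their agreement is therefore no separate check. Across all 10 genes the order of the mean start total was Stmn1 (414 FPKM), Gap43 (176), Map2 (146), Stmn3 (77.5), Stmn2 (33.4), Ina (25.2), Dcx (25.1), Mapt (17.3), Nefm (8.98) and Nefl (6.55). The ranges over the 7 libraries overlapped for the neighbours Gap43 and Map2, Stmn2 and Ina, and Ina and Dcx. All other neighbours were apart. Stmn1 lay above 99.4% of the genes with a start total, and Nefl above 48.4%, so the set spans the transcriptome from its top to its middle.

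**Figure D1:**
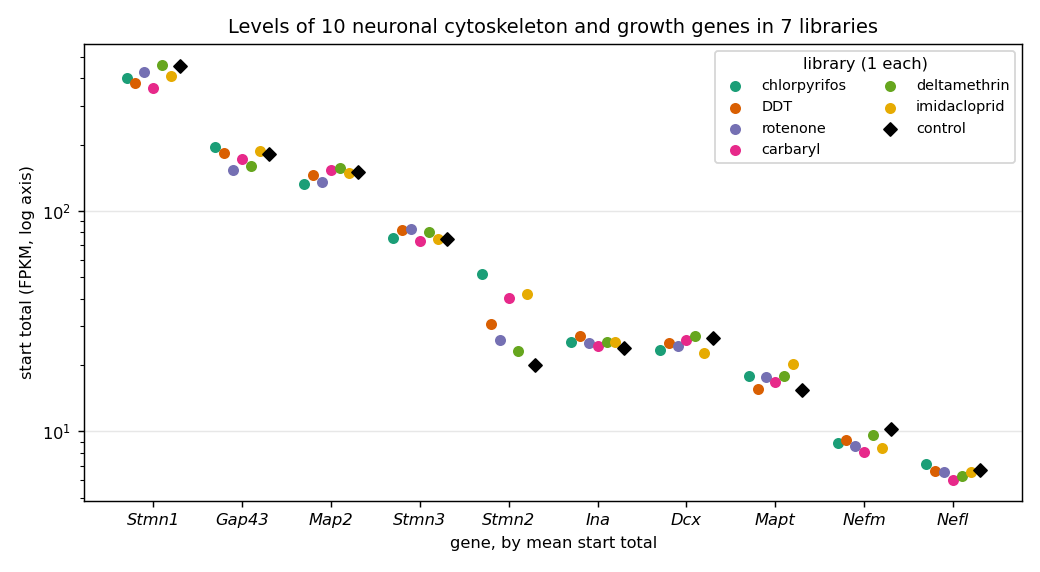
Start totals of the 10 genes in FPKM on a log axis, with 1 point per library (circles for the 6 insecticides, a diamond for control) and genes ordered by their mean. Points of a gene lie close together except for Stmn2, which runs between 51.5 FPKM with chlorpyrifos and 20.0 FPKM in control.

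None of the 6 genes with a gene value reached a 2-fold difference from control in any comparison. The share of all genes that did was 1.61% with chlorpyrifos, 1.74% with DDT, 1.64% with rotenone, 2.14% with carbaryl, 1.71% with deltamethrin and 1.72% with imidacloprid, so a count of 0 of 6 is near that background. All 6 stayed within 1.5-fold in each comparison, as did 93.2% to 94.1% of all genes. Their log2 differences ran between -0.31 (Nefm with carbaryl) and 0.17 (Ina with DDT). The median of the 6 was 0.04 with chlorpyrifos, -0.003 with DDT, -0.07 with rotenone, -0.05 with carbaryl, -0.02 with deltamethrin and -0.02 with imidacloprid, beside all-gene medians between -0.001 and 0.01. The SD of log2 values over the 7 libraries had a median of 0.08 for these genes and 0.12 for the 4728 genes that averaged 5 FPKM or more. In bulk RNA, fewer neurons and less RNA per neuron cannot be told apart.

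**Figure D2:**
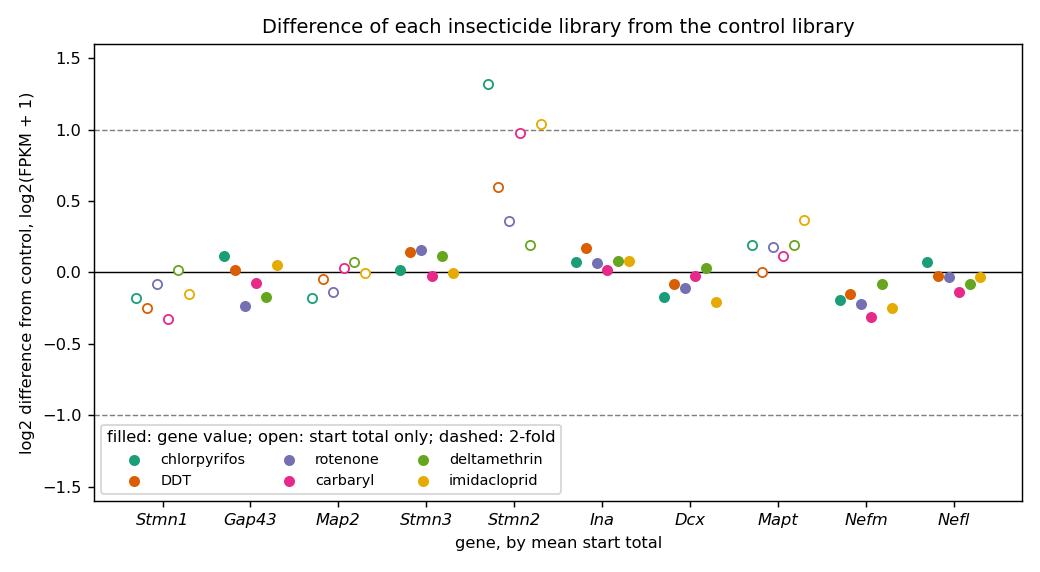
Difference of each insecticide library from the control library in log2(FPKM + 1), with genes ordered as in the plot of levels. Filled points are gene values, open points start totals of genes whose end was not resolved, and dashed lines mark 2-fold. Only Stmn2 crosses a dashed line, with chlorpyrifos (1.32) and imidacloprid (1.04).

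Among the microtubule-associated genes, the start total of Map2 was 132 FPKM with chlorpyrifos, 145 with DDT, 136 with rotenone, 153 with carbaryl, 157 with deltamethrin and 149 with imidacloprid, against 149.5 in control. By start total the exposed libraries lay on both sides of control, with 2 above and 4 below. A measure inside the gene, the included plus skipped FPKM of a repeat exon described further on, was below the start total in every library. The gap was 5.60 FPKM (DDT) to 24.7 FPKM (deltamethrin). By that measure DDT (139 FPKM) and carbaryl (135) were above control (133), with deltamethrin (132), imidacloprid (127), rotenone (123) and chlorpyrifos (108) below. The side of control thus differed between the measures for DDT and deltamethrin. Map2 (chr1:66175273-66442583, plus strand, GRCm38) had 11 listed starts, and the first, at the annotated gene start, held 61.6% of the start total with rotenone and 71.4% with carbaryl, against 80.1% in control. Its share was 89.9% with chlorpyrifos, and 77.8% to 81.1% in the remaining exposed libraries. A further annotated start, 76374 bases downstream with a first exon of 66 bases, stood at 40.9 FPKM (30.2% of the total) with rotenone and 33.3 FPKM (21.9%) with carbaryl, against 17.4 FPKM (11.7%) in control. It was at 16.9 to 18.7 FPKM with DDT, deltamethrin and imidacloprid, and was not listed with chlorpyrifos. Both starts are annotated, and the downstream one was above control with rotenone and carbaryl while the upstream one was below it, at 83.5 FPKM with rotenone and 109 FPKM with carbaryl, against 119.8 FPKM in control. No Map2 start moved its share by 25 percentage points, a step used for all genes further on.

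MAP2 exists in juvenile short forms and adult long forms, which differ by a block of very long coding exons in the middle of the protein. These 3 exons, 4083 bases together and 3741 in the first alone, were included in 9.07% of the Map2 FPKM with chlorpyrifos, 7.27% with DDT, 6.98% with rotenone, 5.78% with carbaryl, 6.75% with deltamethrin and 7.77% with imidacloprid, against 5.42% in control. All 6 exposed libraries were above control, by at most 3.65 percentage points, and the short form made up over 90% of the FPKM in every library. The included FPKM itself was 7.77 to 10.1 in exposed libraries, against 7.22 in control. A 63-base exon in the 5′ UTR was included in 82.7% to 97.9% of the FPKM in exposed libraries, against 90.6% in control. These percentages are of the FPKM of the first Map2 start alone (83.5 to 127 FPKM), not of the whole gene.

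Near the microtubule-binding end, tau and MAP2 each have an exon of 93 bases that adds 1 more microtubule-binding repeat. In tau its skipping gives 3-repeat tau, the form of the fetal brain, and its inclusion gives 4-repeat tau, the main form of the adult mouse brain. The Map2 exon is shown because most Map2 transcripts in these libraries carried it. It lies at chr1:66431527-66431619 (GRCm38, plus strand) and was read from the GENCODE M21 transcripts, in lower case with no base marked.
Map2: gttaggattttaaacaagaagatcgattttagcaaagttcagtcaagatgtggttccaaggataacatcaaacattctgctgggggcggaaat

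The Mapt repeat exon was included in 4.88% of the FPKM with chlorpyrifos, 100% with DDT, 0% with rotenone, 7.17% with carbaryl, 8.90% with deltamethrin and 36.5% with imidacloprid, against 9.92% in control. With DDT the included form stood at 15.1 FPKM and the skipped form was not listed, while in control they stood at 1.49 and 13.6 FPKM. With imidacloprid the forms stood at 7.14 FPKM included and 12.4 FPKM skipped. The other 4 exposed libraries lay below control. Of 11 skipped exons compared in Map2 and Mapt, this was the only one whose inclusion moved by 25 percentage points or more, in DDT (by 90.1 points) and in imidacloprid (by 26.5 points). Among all skipped exons the share that moved that far was 6.71% with chlorpyrifos, 6.77% with DDT, 6.36% with rotenone, 6.76% with carbaryl, 6.56% with deltamethrin and 6.91% with imidacloprid, so 1 of 11 in a comparison is close to that background. Pairs of insecticide libraries differed at 6.03% to 7.22% of exons by the same measure.

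The level of Mapt (chr11:104231390-104332090, plus strand) as a whole followed another order than its exon. The start total was 17.8 FPKM with chlorpyrifos, 15.5 with DDT, 17.6 with rotenone, 16.8 with carbaryl, 17.8 with deltamethrin and 20.2 with imidacloprid, against 15.4 in control, so DDT was next to control in level and farthest from it in exon use. Included plus skipped forms of the exon summed to 15.1 to 19.6 FPKM in exposed libraries, against 15.1 in control, close to the start total. The other alternative Mapt exons were nearly always skipped, with inclusion of at most 1.41% in exposed libraries and at most 1.11% in control. The Map2 repeat exon went the other way in level, with inclusion of 90.6% with chlorpyrifos, 92.6% with DDT, 92.6% with rotenone, 94.0% with carbaryl, 80.3% with deltamethrin and 78.4% with imidacloprid, against 94.5% in control. All 6 exposed libraries were below control, and none by 25 points. In these cultures most Map2 FPKM carried the extra repeat, and in every library except DDT most Mapt FPKM lacked it.

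**Figure D3:**
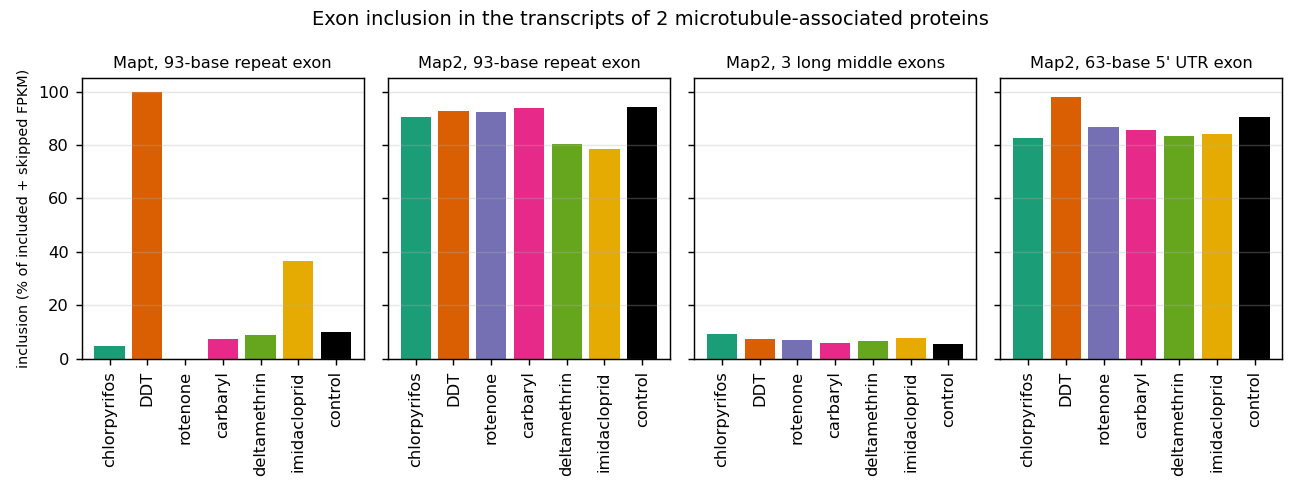
Inclusion of 4 exons or exon blocks in percent of included plus skipped FPKM, with 1 bar per library, exposed libraries left of control. The Mapt repeat exon ranges between 0% with rotenone and 100% with DDT, whereas no Map2 panel moves by 25 points against control.

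Doublecortin, the marker of migrating neurons, had a gene value of 23.3 FPKM with chlorpyrifos, 24.9 with DDT, 24.4 with rotenone, 25.9 with carbaryl, 27.0 with deltamethrin and 22.7 with imidacloprid, against 26.4 in control. The lowest, with imidacloprid, was -0.21 on the log2 scale. Dcx (chrX:143855842-143933311, minus strand) has 2 listed first exons that begin at the same base and end at different splice sites, of 415 and 242 bases. The longer one held 10.2% of the start total with chlorpyrifos, 1.96% with DDT, 0.492% with rotenone, 13.4% with carbaryl, 10.5% with deltamethrin and 7.75% with imidacloprid, against 15.3% in control. Every exposed library was below control in this share, with DDT and rotenone lowest, though no share moved by 25 points.

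The stathmins ranged between an even gene, Stmn3, and the most uneven gene of the group, Stmn2. Stmn3 (chr2:181306459-181314500, minus strand), a neuronal stathmin, had 1 start and 1 end, and stood at 75.2 FPKM with chlorpyrifos, 82.1 with DDT, 83.0 with rotenone, 73.1 with carbaryl, 80.5 with deltamethrin and 74.2 with imidacloprid, against 74.3 in control. Its highest library was 1.13 times its lowest. Stmn1, the general stathmin of dividing and young cells, had a start total of 400.5 FPKM with chlorpyrifos, 381 with DDT, 429 with rotenone, 361 with carbaryl, 459.9 with deltamethrin and 409 with imidacloprid, against 454 in control. Of the 6 exposed libraries, 5 were below control, the farthest being carbaryl at -0.33 on the log2 scale. The chlorpyrifos value is 37.6 FPKM short of the 438 FPKM listed for the splicing of its second intron, and in the other libraries the same 2 measures differed by at most 1.13 FPKM.

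Stmn1 (chr4:134468320-134473843, plus strand) also differed in its starts in 1 library. A start 1422 bases downstream of the gene start, annotated, with a first exon of 434 bases, stood at 145.8 FPKM with deltamethrin, or 31.7% of the start total, against 11.7 FPKM, or 2.58%, in control. In the other 5 exposed libraries its share was 2.62% to 3.89%. The first start held 314 FPKM with deltamethrin, against 443 FPKM in control, so the sum of both was nearly equal in these 2 libraries.

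Stmn2, the neuronal stathmin also called SCG10, had the widest range. Its start total was 51.5 FPKM with chlorpyrifos, 30.8 with DDT, 25.9 with rotenone, 40.3 with carbaryl, 23.1 with deltamethrin and 42.2 with imidacloprid, against 20.0 in control. All 6 exposed libraries were above control, by 0.19 (deltamethrin) to 1.32 (chlorpyrifos) on the log2 scale. On start totals, 1 of the 10 genes reached 2-fold with chlorpyrifos and 1 with imidacloprid, Stmn2 in both, and 0 of 10 in the other comparisons. The background by start totals was 3.13% with chlorpyrifos, 3.20% with DDT, 3.04% with rotenone, 3.30% with carbaryl, 3.15% with deltamethrin and 3.05% with imidacloprid. These 6 comparisons share the control library, in which Stmn2 was lowest.

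The Stmn2 value cannot be checked at its end. The only end listed at Stmn2 (chr3:8509360-8561606, plus strand) belongs to a minor annotated transcript and stood at 0.139 to 5.40 FPKM in exposed libraries, against 2.78 FPKM in control, with DDT above control and the other 5 below. With chlorpyrifos more than the usual start was listed. An unannotated start of 60 bases, 14609 bases downstream of the gene start, stood at 28.5 FPKM, or 55.4% of the start total, and the annotated start at 23.0 FPKM. That start was not listed in any other library. Counting the annotated start alone, chlorpyrifos was at 23.0 FPKM, against 20.0 FPKM in control, and the highest exposed libraries were imidacloprid and carbaryl.

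**Figure D4:**
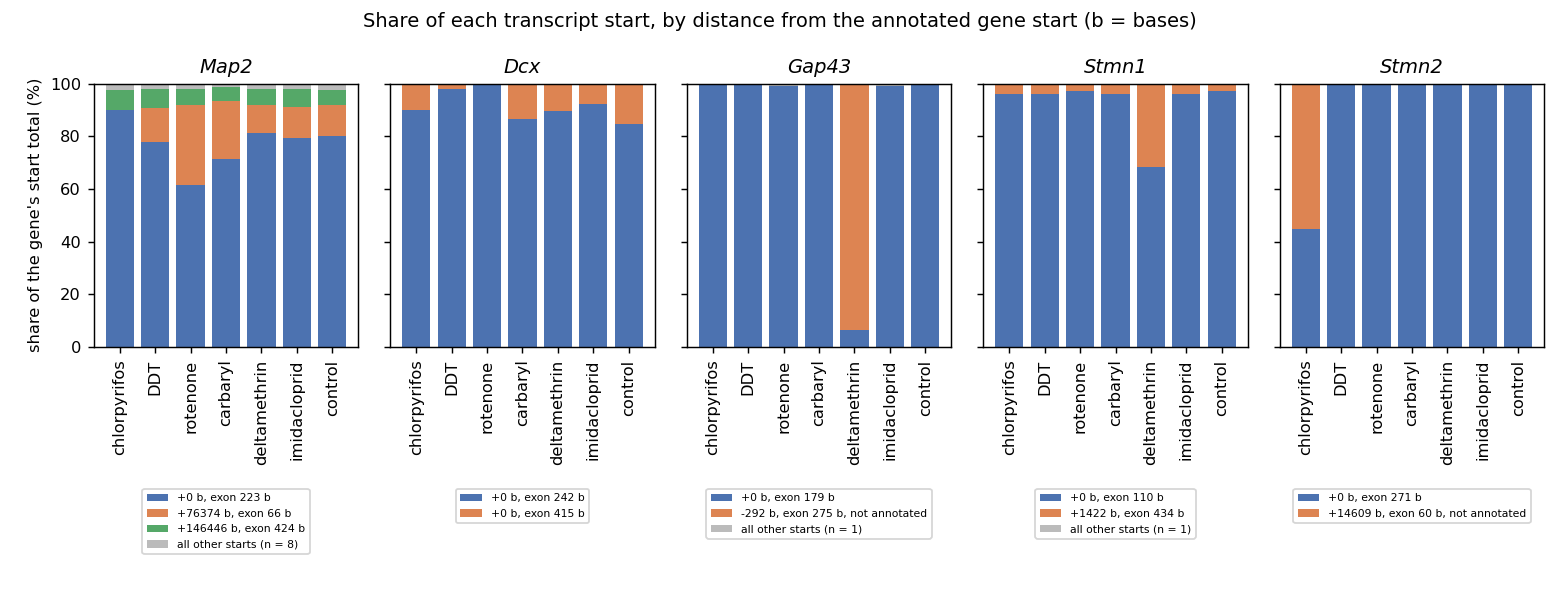
Share of each listed transcript start in the start total, in percent, for 5 genes with alternative starts, with 1 stacked bar per library and exposed libraries left of control. Colours are starts, named by distance in bases (b) from the annotated gene start and by first exon length. An unannotated start fills 93.4% of the Gap43 bar with deltamethrin and 55.4% of the Stmn2 bar with chlorpyrifos.

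Gap43 stood at 195 FPKM with chlorpyrifos, 182 with DDT, 153 with rotenone, 171 with carbaryl, 160.2 with deltamethrin and 187 with imidacloprid, against 180.3 in control. The exposed libraries lay on both sides of control, 3 above and 3 below, and the lowest, rotenone, was -0.23 on the log2 scale. The source of its starts differed in 1 library. With deltamethrin an unannotated first exon of 275 bases, which begins at position -292 relative to the start of Gap43 (chr16:42248442-42340651, minus strand), held 149.7 FPKM, or 93.4% of the start total, and the annotated start held 10.6 FPKM. In the other 6 libraries the annotated start held at least 99.2% and the upstream exon was not listed. The listed end of Gap43 also stood at 160.2 FPKM with deltamethrin, a value that equals the start total in every library and is no separate measure. When events were assigned by annotated exon boundaries in place of the gene identifier, the upstream exon dropped out and Gap43 with deltamethrin read -1.07 on the log2 scale, beside -0.17 with the identifier.

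Of the 6 genes with more than 1 start listed, those with a start whose share moved by 25 points or more were Stmn2 with chlorpyrifos and Gap43 and Stmn1 with deltamethrin, and there were 0 with DDT, rotenone, carbaryl and imidacloprid. Among all genes with several starts that share was 14.7% with chlorpyrifos, 14.4% with DDT, 13.8% with rotenone, 14.3% with carbaryl, 13.8% with deltamethrin and 14.1% with imidacloprid. With 6 genes, counts of 0, 1 and 2 cannot be set apart from such shares.

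Nefm and Nefl were the lowest of the group, and Ina lay among Stmn2 and Dcx. Nefm (chr14:68082590-68124846, minus strand), the medium chain, stood at 8.85 FPKM with chlorpyrifos, 9.10 with DDT, 8.63 with rotenone, 8.03 with carbaryl, 9.60 with deltamethrin and 8.43 with imidacloprid, against 10.2 in control. All 6 exposed libraries were below control, by 0.08 to 0.31 on the log2 scale. Nefl (chr14:68083863-68089095, plus strand), the light chain, stood at 7.11 FPKM with chlorpyrifos, 6.60 with DDT, 6.55 with rotenone, 6.02 with carbaryl, 6.29 with deltamethrin and 6.54 with imidacloprid, against 6.71 in control. Only chlorpyrifos was above control. The annotated span of Nefm covers Nefl on the other strand, but their listed first and last exons do not overlap. Ina (chr19:47014698-47025327, plus strand), the early subunit, stood at 25.3 FPKM with chlorpyrifos, 27.1 with DDT, 25.1 with rotenone, 24.3 with carbaryl, 25.4 with deltamethrin and 25.4 with imidacloprid, against 24.0 in control. Here all 6 exposed libraries were above control, by 0.02 to 0.17. Carbaryl was the lowest exposed library for all 3 subunits.

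A gene, or the share of an exon or start, can lie below or above control in all 6 exposed libraries because of the control library alone. Control was the highest of the 7 libraries for 12.8% of all genes with a gene value and the lowest for 14.1%, and among the 6 members for Nefm and for Ina. On start totals it was the highest for 13.8% and the lowest for 14.3% of genes, and among the 10 members the highest for 1 (Nefm) and the lowest for 3 (Mapt, Stmn2 and Ina). This was not counted for exon inclusion or start shares, so the Map2 exons and the Dcx first exon have no such background. With the median of the other 6 libraries as the baseline, Nefm ranged between -0.14 with carbaryl and 0.12 with deltamethrin.

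Other genes of the neuronal cytoskeleton and axon growth were described in the same way. Of 180 genes in 6 lists, 83 had a usable value. Among those listed in both libraries, 1 reached 2-fold with chlorpyrifos, 1 with deltamethrin and 0 in the other comparisons. The backgrounds, counted in the same way, were the 1.61% to 2.14% given above. Growth cone and axon growth proteins (27 of 46 usable) had medians between -0.01 and 0.06, and Rac3, a small GTPase, stood at 9.30 FPKM with deltamethrin, against 3.67 in control. It was the only member of its list at 2-fold with a pseudocount of 1 FPKM, among those listed in both libraries. Its other exposed libraries were at 3.69 to 6.33 FPKM. Marcks, also of this list, was not listed in control or with imidacloprid and so has no log2 difference from control. It stood at 15.9 to 23.4 FPKM in the other exposed libraries, and its absence in control was not tested. The actin-severing Cfl1 was lowest with imidacloprid, at 671 FPKM against 1112 FPKM in control (-0.73), and Add2, an adducin of the membrane skeleton, was highest with rotenone, at 13.0 against 6.32 FPKM (0.93). Kinases and phosphatases (16 of 33) had medians between -0.04 and 0.10. Cdk5r1, the p35 activator of the tau kinase CDK5, stood at 9.95 FPKM with chlorpyrifos, against 4.47 in control (1.00), and at 3.43 to 4.55 FPKM in the other exposed libraries. The tau kinase gene Gsk3b was lowest with imidacloprid, at 10.5 against 18.3 FPKM (-0.75), and Ppp3cb, a catalytic subunit of calcineurin, was highest with rotenone, at 33.6 against 18.0 FPKM (0.87). Map3k12, the axon injury kinase DLK, was lowest with carbaryl, at 3.33 against 5.87 FPKM (-0.67). Its 2 measures differed there, with a start total of 1.80 FPKM against 4.85 in control, and an end total of 4.85 against 6.89.

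Microtubule-associated and severing proteins (18 of 39 usable) had medians between -0.08 and 0.01 and no member at 2-fold. On the log2(FPKM + 1) scale the nearest was Jpt1, at 71.9 FPKM with rotenone, against 143 in control (-0.98), and at 85.2 to 148 FPKM in the other exposed libraries. Tppp3, a tubulin polymerisation promoter, was at 3.42 FPKM with chlorpyrifos, against 7.10 in control (-0.87). With a pseudocount of 0.1 FPKM, tried after the data were seen, Tppp3 with chlorpyrifos (-1.03) and Add2 with rotenone (1.03) passed 2-fold, as did the factor Neurog2 with rotenone (1.07). Neurog2 was low, at 1.63 FPKM with rotenone, against 0.723 in control, and below the mean of 5 FPKM used for naming genes. Ndel1, a dynein regulator, was at 10.6 FPKM with deltamethrin, against 16.7 in control (-0.61), and Map1a, a microtubule-associated protein of mature neurons, was at 8.34 FPKM with DDT, against 12.9 in control (-0.57). Axonal transport motors (11 of 17) had medians between -0.07 and 0.05, the farthest member being the kinesin Kif21a at 9.35 FPKM with chlorpyrifos, against 16.6 in control (-0.76). Transcription and RNA factors (8 of 33) had medians between -0.07 and 0.04, with Ebf1 at 11.0 FPKM with deltamethrin, against 7.76 in control (0.46), and the splicing factor Rbfox2 at 26.3 FPKM with imidacloprid, against 34.7 in control (-0.39). Of 12 other intermediate filament genes only 3 were usable, the lamins Lmnb1 and Lmnb2 and the progenitor filament Vim, and the farthest from control was Lmnb2 with DDT (-0.24 on the log2 scale).

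Marker levels describe the cells around these genes. For each marker the larger of its start total and end total in each library was used, not the gene value. The summed level of 10 neuron markers (8 listed, Tubb3 and Elavl3 without an event) was 99.9 to 113 FPKM in exposed libraries, against 98.7 in control. The 7 progenitor markers summed to 1241 to 1509 FPKM, against 1359.7 in control. Most of that was Vim, at 995 to 1233 FPKM in exposed libraries, against 1075 in control. Each exposed library lay on the same side of control in this sum as in Vim alone. Of the others, Nes was below control in every exposed library (165 to 205 FPKM, against 206), and Hes1 lay on both sides (25.4 to 32.7, against 27.1). The direction of the neuron sum rests on the synaptic vesicle gene Syt1, which stood at 11.6 to 14.7 FPKM in exposed libraries, against 3.07 in control. Without it the other 7 listed neuron markers summed to 87.5 to 100.3 FPKM in exposed libraries, against 95.6 in control, with 1 exposed library (DDT) above control and 5 below. Single neuron markers went different ways. The neuronal RNA-binding gene Elavl4 was below control in all 6, at 4.97 to 6.31 FPKM, against 6.36 in control. On start totals control was the highest library for 13.8% of all genes. Snap25 (6.83 to 8.93 FPKM, against 7.41) and Syp (13.7 to 17.4, against 14.7) lay on both sides of control. Dividing-cell markers summed to 244 to 309 FPKM, against 302 in control, and all 4 were listed. Astrocyte markers summed to 199.9 to 234 FPKM, against 204 in control, with the defining markers Gfap, S100b and Aqp4 below 1 FPKM in every library. Oligodendrocyte-lineage markers summed to 114 (DDT) to 175 FPKM, against 167 in control, nearly all of it Olig2, and fibroblast markers to 24.5 to 35.5 FPKM (rotenone), against 27.7 in control. None of 4 microglia markers was listed. The part of cell makeup in the differences above was not tested.

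For the 2 members with the widest range among those with a gene value, the most alike profiles over the 7 libraries were sought in 4593 genes, as a description with no test, since the points share libraries and their depth. For Gap43 they were Ccdc25 (Pearson r = 0.98), Pom121 (0.97) and Cul7 (0.97). For Nefm they were Uhrf1bp1l (0.94), Mrpl32 (0.94) and Cyp20a1 (0.93).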

How the data were processed

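Total RNA from 7 cultures was sequenced, 1 library per group, with groups taken from the sample titles. Per the submitters' processing notes, the tools were HISAT2 2.0.1, bcl2fastq 2.17.1.14 and cutadapt 1.9.1, and the build was GRCm38. Per the file headers, the authors deposited an FPKM value for each event of transcript structure. The tool that made them and the strandedness are not given in the sources used here. Only events above 0 are listed, the lowest at 1e-06 FPKM, so depth is unknown and counting error cannot be given. Repeated lines (1973 to 2078 per library) were dropped.

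Start and end events were summed per gene by the identifier on each line, on either strand. A total below 5% of its partner was treated as missing. Genes whose start and end totals, averaged over the libraries, agreed within 0.3 on the log2 scale and averaged at least 1 FPKM were compared, with a pseudocount of 1 FPKM. A gene at 0 in either library was left out of that comparison, so 6261 to 6271 genes entered each comparison with control. Of all genes, 7475 agreed, 2868 disagreed, 2777 had a start and 521 an end total only. Inclusion is included over included plus skipped FPKM, compared where that sum reached 5 FPKM in both libraries. The steps were checked on simulated data (Python 3.11.15, pandas 2.3.3). Annotation was GENCODE M21. The sequence of a further exon is not reported here.

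The members, lists and rules were chosen with earlier results of these data known. Genes named beside the members are up to 4 per list with the largest difference in any comparison and a mean of at least 5 FPKM, and the 3 most alike genes of 2 members. Syt1, Elavl4, Snap25, Syp, Nes, Hes1, Olig2, Neurog2 and Marcks were named after their values were seen. Alternatives were another pseudocount, median-ratio scaling, 1 end only, other filters and tolerances, matching by exon boundaries, repeated lines kept and another baseline. Events on the gene's strand only, repeated lines in exon inclusion, the smaller pseudocount for the lists and neuron markers without Syt1 were added after seeing the data.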

Additional observations from a re-analysis of the deposited data

Results flagged for a closer look

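Some starts on the strand opposite to a member were listed in exposed libraries at levels above control. Within Gap43 such a start stood at 1.08 FPKM with rotenone and 1.47 FPKM with imidacloprid, and it was not listed in control. Its splice boundaries are those of the first intron of Gap43 itself. Within Stmn1 one stood at 1.10 FPKM with imidacloprid and was not listed in control. At the first exon of Ina, an opposite-strand start whose line names Nt5c2 stood at 7.59 FPKM with chlorpyrifos and 7.01 FPKM with carbaryl, against 0.776 FPKM in control. The other 4 exposed libraries had 0.268 to 2.74 FPKM there, with rotenone below control. Within Nefm the pattern was the opposite, with an opposite-strand start listed at 1.82 FPKM in control and in no exposed library. Since strandedness is not given, reads from the 2 strands cannot be told apart, and the difference was not tested.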

How the results depend on the processing

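The count of members at 2-fold or more was 0 in all 6 comparisons and stayed 0 in 58 of 66 checks under 11 alternatives. With start totals only, which brings in all 10 members, it was 1 with chlorpyrifos and 1 with imidacloprid (Stmn2, higher than control). With end totals only it was 1 with chlorpyrifos, rotenone, carbaryl, deltamethrin and imidacloprid. That was Stmn2 by its minor end, in the opposite direction, at 0.139 to 0.729 FPKM in these 5 libraries, against 2.78 FPKM in control. With events matched by exon boundaries it was 1 with deltamethrin (Gap43, -1.07), since the unannotated start then drops out. The median of the members moved by less than 0.1 on the log2 scale in all 66 checks. Of 396 single log2 differences, 389 stayed on their side of 2-fold and within 0.1, and 6 of the remaining 7 were Nefm against the median of the other libraries. Many of these checks could not move, so the counts, including the 58 of 66, overstate stability. Other filters and tolerances change which genes are compared, not a member's own difference. For the 5 members with equal start and end totals, using 1 end only gives the same value. Shares of starts, ends and exons did not move when repeated lines were kept. No alternative moved the median of all genes by more than 0.02. With a pseudocount of 0.1 FPKM the list genes at 2-fold were 2 with chlorpyrifos and 2 with rotenone, against 1 and 0 with 1 FPKM, and the share of all genes was 3.03% to 3.44%. No paired analysis was possible because each group holds 1 library. Without read counts, the error of exon shares such as that of Mapt, which rest on 15.1 to 19.6 FPKM, is unknown.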
